A study of Sus scrofa with 21 samples.

Results

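Endometrium taken between the attachment sites of pregnant sows was compared on day 18 and day 13 after insemination. The 6 arrays were chosen by their labels alone, 3 from day 18 inter-sites and 3 from day 13 inter-sites, out of 21 arrays in 7 groups of 3. All sows were Large White. The day 18 and day 13 sows had been inseminated and were pregnant, and on each day 3 sows gave tissue from attachment sites, where a conceptus lay against the uterine wall, and from the inter-sites between them. The remaining groups were the attachment sites of days 13 and 18, both site types on day 24, and non-pregnant sows sampled on day 13 after receiving inactivated sperm from the same boar. RNA was hybridised to single-colour Agilent porcine arrays. Attachment site and inter-site samples of a day came from the same sows, although the labels do not say which arrays share a sow, so results of the 2 site types are not independent. The day 18 and day 13 sows were different animals. The p-values rest on the spread between the 3 arrays of a group, pooled over all 7 groups. Arrays that share a sow were treated as independent in that spread.

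In the pig the conceptuses elongate before they attach to the luminal epithelium, and the placenta does not invade the uterine wall. They signal to the mother with oestrogens, which act in the maternal recognition of pregnancy, and with interferons released by the trophoblast around the time of attachment, which act on the stroma and the glands. Endometrial glands meanwhile secrete histotroph, a mixture of transport proteins, enzymes and adhesion proteins that feeds the conceptus under the control of progesterone.

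Levels are log2 signals relative to the 75th percentile of the same array, so a negative level is dimmer than that percentile, and differences are day 18 minus day 13 on the log2 scale (log2 fold changes). Of the 43603 probes, 66.3% to 68.8% were well above background on the day 18 arrays and 68.7% to 73.8% on the day 13 arrays, and 30089 were tested. The arrays expressed what endometrium is known for: uteroferrin (ACP5), the progesterone receptor (PGR), the epithelial adhesion protein EPCAM and the stromal proteoglycan decorin (DCN) were well above background on all 6. One library stood apart. Day 13 replicate 1 correlated with the other day 13 inter-site libraries at 0.943 and 0.934 over the tested probes, below its correlation with day 24 inter-site replicate 3 (0.970) and non-pregnant replicate 3 (0.968). It held DKK1, an inhibitor of WNT signalling, at -3.24, where the other 5 inter-site arrays of days 13 and 18 lay between 4.22 and 5.57. The non-pregnant arrays held DKK1 at -4.63, -5.37 and -4.63, and day 24 inter-site replicate 3 held it at -6.13. For the named genes whose difference moved by over 1.5 times or turned without this library, the value without it is also given.

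Betaine-homocysteine methyltransferase (BHMT), which turns homocysteine back into methionine with betaine as the methyl donor, was the named gene that passed the test between the days. Its levels were -6.98, -7.29 and -6.48 on the day 18 arrays, against -3.40, -3.94 and -3.30 on the day 13 arrays. All 3 day 18 values lay far below all 3 day 13 values. The probe was well above background on 0 of 3 day 18 arrays and on 3 of 3 day 13 arrays. Its log2 fold change was -3.37 (SE 0.47, limma adjusted p 0.0267). With the signals as processed here, the fall in BHMT was bounded at 3.77-fold or more. The bound leaves out the spread between arrays and holds for this processing only. After normexp background correction the log2 fold change was -1.34, a smaller fall than the bound. For this bound each dim array was given its own reading of the probe or, where higher, the dimmest reading of any probe that stood well above background there.

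BHMT was low in the later groups as well. Its levels on the day 24 arrays were -6.11, -6.08 and -6.15 at inter-sites and -7.35, -6.93 and -6.29 at attachment sites. The non-pregnant arrays, which were from day 13, held -4.48, -4.35 and -6.77. At attachment sites the day 18 arrays held -7.83, -7.08 and -7.68, against -3.51, -3.77 and -3.48 on day 13, a log2 fold change of -3.95 (SE 0.47, limma adjusted p 0.00165). The inter-site and attachment site changes differed by 0.58 (SE 0.67), which was within their error. On day 18 the probe was well above background on 0 of 3 arrays at either site type. Both falls therefore ended at background, and the comparison could not show whether they differed in size.

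The second probe that fell, A_72_P142996, has no gene symbol here. It read -7.92, -7.45 and -7.30 on the day 18 arrays, against -4.78, -4.85 and -5.28 on the day 13 arrays, with no overlap. It was well above background on 0 of 3 day 18 arrays and 3 of 3 day 13 arrays. Its log2 fold change was -2.59 (SE 0.35, limma adjusted p 0.0267), and -0.96 after normexp background correction. The same kind of bound, with the same limits, put its fall at 1.40-fold or more. At attachment sites all 6 arrays of the same days left it within background. It was tested because of the day 13 inter-site arrays alone, as in no other group did every array measure it, and with all probes tested its adjusted p was 0.0431, as was that of BHMT. The plot shows the levels of both probes over the 7 groups. By the flags of the scanner software, BHMT was well above background on all day 13 arrays of both site types. It was also so on 2 of 3 non-pregnant arrays and on 1 of 3 day 24 inter-site arrays. A_72_P142996 was so on all 3 day 13 inter-site arrays and on 1 array of day 24 inter-sites.

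**Figure D1:**
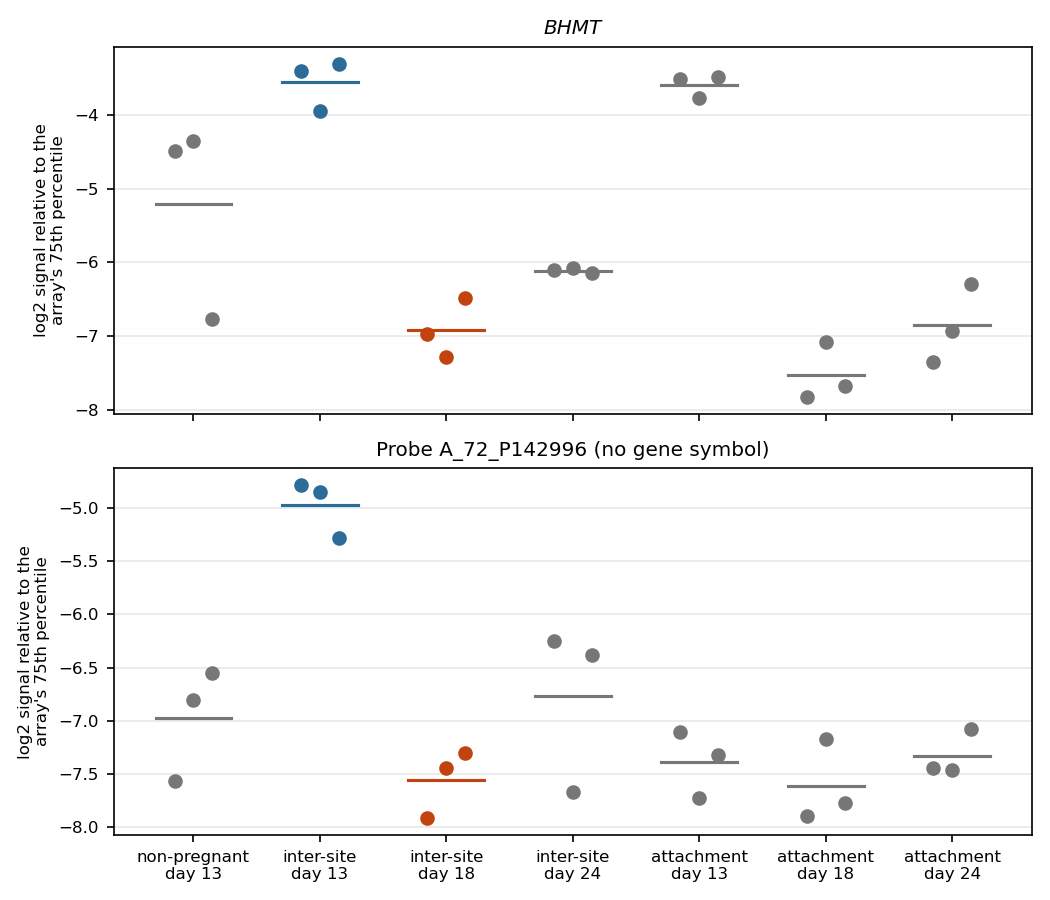
Levels of BHMT (top) and of probe A_72_P142996 (bottom) on each of the 21 arrays, as log2 signal relative to the 75th percentile of the array, by group; points are arrays and bars are group means. BHMT lies between -7.29 and -6.48 at day 18 inter-sites and between -3.94 and -3.30 at day 13 inter-sites.

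These were the only probes called by the comparison: 2 of 30089 at an adjusted p under 0.05, which is 0.00665% of those tested, with 0 higher and 2 lower on day 18. At an unadjusted p under 0.05 there were 1654 probes, 5.5% of those tested. The 3 day 18 values lay above all 3 day 13 values for 1110 probes (3.69%) and below them for 1783 (5.93%), which together is 2893 probes (9.61%). That split depended on the scaling: probes above made up 38.4% of both with the 75th percentile, 49.2% after quantile normalization, 69.5% with scaling to the median and 24.4% after normexp background correction. The median difference of all tested probes was -0.07, and it was 0.09 with scaling to the median and -0.27 after normexp. For the middle probe the 95% interval reached 0.72 to either side of the estimate, and for 1 probe in 10 it reached 1.42 or more. Both calls were lost when only the 6 arrays were fitted (adjusted p 0.359 for each), when slide was a fixed block (0.174), with a mean-variance trend (0.116 for BHMT) and after normexp (0.483), where the BHMT difference was -1.34. They were also lost without any single inter-site library other than day 18 replicate 3, at adjusted p values of 0.112 to 0.270, and the probe count then lay between 0 and 6.

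The other genes below did not pass the test. Among the 2017 genes with a symbol, the lowest adjusted p after BHMT was 0.388, so their values are given as measurements. Of the 2017 genes, 104 had all day 18 values above all day 13 values (5.16%) and 108 had them below (5.35%), with a median difference of 0.00. The gene lists described next were read against those shares.

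Interferon response genes, most of them induced in cells that an interferon has reached, had more members without overlap than any other list by count. The lists differ in size, and by share the smooth muscle list had more, with 4 of 5. Of 32 tested, 0 were called, 29 had a positive difference, and 15 had all day 18 values above all day 13 values, with 1 below. Their median difference was 0.99. ISG15, a ubiquitin-like protein that is attached to target proteins, had levels of 5.02, 6.52 and 5.46 on day 18, against 2.69, 3.16 and 3.11 on day 13. The day 18 arrays were all above the day 13 arrays, with replicate 2 the highest, and the difference was 2.68 (SE 0.62, adjusted p 0.513).

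The antiviral enzyme RSAD2 (viperin) had levels of 0.29, 2.30 and 0.48 on day 18, against -1.63, -1.07 and -1.72 on day 13. Its difference was 2.50 (SE 0.66), and the groups did not overlap. DDX58, which codes for the RNA sensor RIG-I, had -2.19, -0.91 and -2.28 on day 18, against -4.19, -4.02 and -2.86 on day 13. Here too day 18 replicate 2 was the highest array. USP18, the protease that removes ISG15 from its targets, had 3.89, 4.33 and 3.54 on day 18, against 2.30, 2.42 and 2.50 on day 13, and a difference of 1.52 (SE 0.41). The kinase EIF2AK2 (PKR), which halts translation on double-stranded RNA, had 1.42, 2.02 and 1.84 on day 18, against 0.87, 0.86 and 1.07 on day 13. Neither of these genes overlapped between days.

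The genes usually tied to interferon gamma were more uneven. UBD, a ubiquitin-like modifier, did not overlap: it had 1.38, 2.05 and 2.40 on day 18, against -0.11, 0.31 and -0.52 on day 13, a difference of 2.05 (SE 0.52, adjusted p 0.671). CXCL10, a chemokine that attracts activated T cells, had 1.69, 5.48 and 4.31 on day 18, against 0.95, 3.72 and 1.22 on day 13. Day 18 replicate 1 lay below day 13 replicate 2, so the groups overlapped. CXCL9, a chemokine of the same receptor, had -1.81, 1.75 and -0.33 on day 18, against -0.53, -0.37 and -1.07 on day 13, with a difference of 0.52 (SE 1.19), which turned to -0.42 without day 18 replicate 2. IRF1, a transcription factor induced by interferon gamma, had 1.24, 2.84 and 2.48 on day 18, against 1.29, 2.29 and 0.9956 on day 13, a difference of 0.66 (SE 0.54).

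Genes of antigen presentation had positive differences in 23 of 23 tested members, with 0 called, 10 above without overlap and 0 below, and a median of 0.81. SLA-3, a class I molecule of the pig, had 7.49, 7.72 and 7.74 on day 18, against 5.98, 5.96 and 5.93 on day 13. The arrays of each day lay close together and the days well apart, and the difference was 1.69 (SE 0.34, adjusted p 0.388). Its 6 other tested probes had differences of 0.83 to 1.29. Class I genes are near-identical copies of one another, so a probe may read more than its own gene. SLA-DOB, a chain of the class II modulator DO, had -4.49, -4.09 and -3.42 on day 18, against -6.04, -4.87 and -5.78 on day 13. It was well above background on 1 of 3 day 13 arrays, and its difference of 1.56 (SE 0.49) turned to -0.52 after normexp. The light chain of class I molecules, B2M, had 7.81, 8.23 and 8.12 on day 18, against 7.13, 7.55 and 7.37 on day 13. PSMB8, a subunit of the immunoproteasome that cuts peptides for class I, had 1.77, 3.03 and 1.75 on day 18, against 0.40, 0.63 and 0.50 on day 13. These 2 genes were chosen after their values were seen, as members whose groups did not overlap.

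The lists moved differently between arrays. Each array is summarised here by the median, over a list, of each gene's level minus its mean over 21 arrays. For the interferon response this was 0.13, 1.005 and 0.46 on day 18, against -0.55, -0.27 and -0.54 on day 13. For antigen presentation it was -0.23, 0.62 and 0.53 on day 18, against -0.61, -0.40 and -0.70 on day 13. Day 18 replicate 1 was the lowest day 18 array for both lists and stood above every day 13 array. That array and day 13 replicate 1 were the only pair of the 2 days on one slide, and between them the median differences were 0.61 for the interferon response and 0.23 for antigen presentation. With array weights, which gave day 18 replicate 1 more weight than the other 5 inter-site arrays, they were 0.51 and 0.42. Without day 13 replicate 1 they were 0.91 and 0.90.

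**Figure D2:**
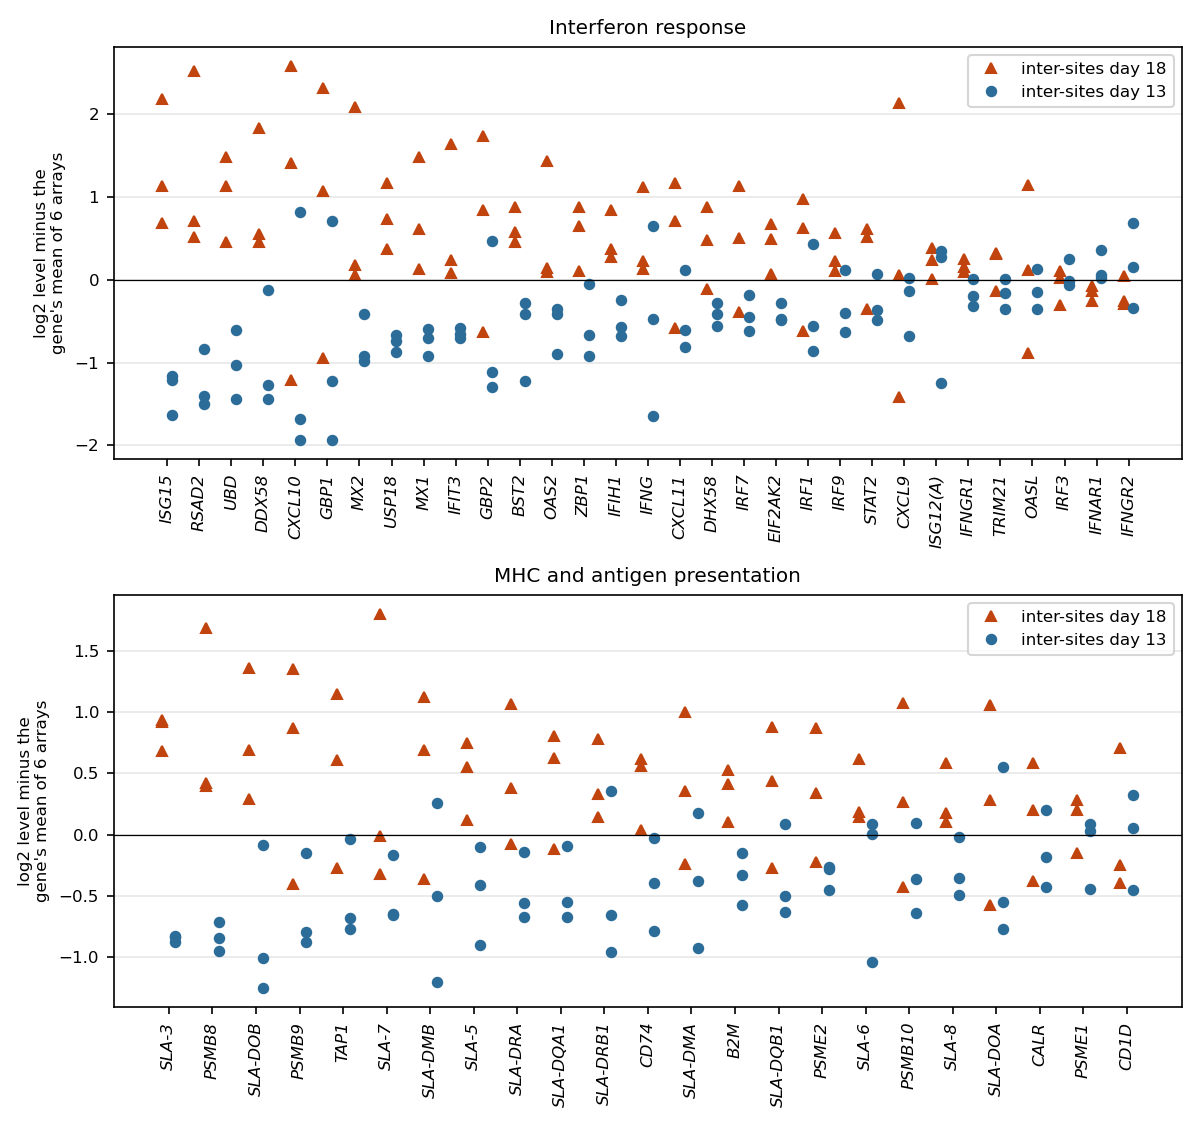
Level of tested interferon response genes, all but 1 (top), and of each tested antigen presentation gene (bottom) on the 3 day 18 arrays (triangles) and the 3 day 13 arrays (circles), minus the gene's mean over these 6 arrays, on the log2 scale; genes are ordered by their difference. Triangles lie above circles without overlap for 15 of 32 and 10 of 23 genes.

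In bulk tissue, fewer cells of a type and less RNA per cell cannot be told apart, which holds for all marker lists. Markers of T and NK lymphocytes had positive differences in 9 of 11 tested genes, with 0 called, 5 above without overlap and 0 below, and a median of 0.66. The adhesion molecule CD2 had -3.32, -1.58 and -1.78 on day 18, against -3.64, -3.72 and -3.49 on day 13, a difference of 1.39 (SE 0.55, adjusted p 0.863). CD8A, the co-receptor of cytotoxic T cells, had -0.93, -0.91 and -0.39 on day 18, against -1.95, -2.12 and -2.12 on day 13. Neither overlapped between days. The T cell receptor chain CD3D, singled out after its value was seen, had a difference of -0.05, and all 11 genes were well above background on at least 2 arrays of each day. Over the list, the array medians were -0.01, 0.30 and 0.98 on day 18, against -0.38, -0.54 and 0.06 on day 13, and the median difference was 0.03 after normexp. Whether more of these cells stood behind the interferon and antigen presentation values was not tested.

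Of the 4 tested myeloid markers 3 had a positive difference and 1 a negative one, and 0 had groups without overlap. The scavenger receptor CD163 had 2.51, 1.43 and 1.89 on day 18, against 3.87, 3.12 and 1.88 on day 13. CD180, a Toll-like receptor homologue of B cells and macrophages, had -1.54, 0.56 and -0.95 on day 18, against -1.45, -1.38 and -2.37 on day 13. The CD163 difference of -1.01 became -0.55 without day 13 replicate 1. The median of the 4 markers was 0.20, and it was -0.05 without day 18 replicate 2, -0.14 with array weights and -0.73 between the 2 arrays that share a slide.

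Smooth muscle genes had the highest list median, 1.94, with 5 of 5 tested genes positive, 4 above without overlap and 0 called. ACTA2, the actin of smooth muscle, had 4.89, 5.46 and 7.36 on day 18, against 3.75, 3.77 and 4.48 on day 13. TPM2, a tropomyosin of the contractile filament, had 3.43, 4.32 and 6.46 on day 18, against 2.47, 2.63 and 3.12 on day 13. In both, day 18 replicate 3 was the highest array by a wide margin. The list's array medians were -1.34, -0.22 and 1.92 on day 18, against -1.91, -1.99 and -1.35 on day 13, so the day 18 arrays spread more widely than the days differed. The median difference was 1.14 without day 18 replicate 3 and 0.03 with slide as a fixed block. Myometrium underlies the endometrium, and its share in each sample was not tested.

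Markers of the conceptus varied between arrays. Embryonic globin HBE1 had 1.27, 2.62 and -0.56 on day 18, against -5.22, -2.98 and -1.36 on day 13. The groups did not overlap, but they spread over 3 or more log2 units each, and the difference was 4.30 (SE 1.54, adjusted p 0.845). Globin genes resemble one another, so the probe may read a relative. At attachment sites HBE1 had 3.74, 8.60 and 4.46 on day 18, against -3.67, -2.12 and -1.38 on day 13, a log2 fold change of 7.996 (adjusted p 0.0237). The other markers were less clear: GATA2, a transcription factor of trophoblast and other tissues, differed by 0.23, the pig aromatase CYP19A3 was well above background on 0 of 6 arrays, and the yolk sac protein AFP on 1 of 3 day 18 arrays and 0 of 3 day 13 arrays. The median of the 9 tested markers was 0.58, and it was -0.23 after normexp. The part of conceptus tissue in these samples was not tested.

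Of 6 tested epithelial markers 4 had a positive difference and 2 a negative one, and 0 had groups without overlap. They ranged between KRT8 at -0.64 and the tight junction protein CLDN4 at 0.52, and CLDN4 turned to -0.13 without day 13 replicate 1. Their median of 0.05 lay between -0.24 and 0.26 when 1 library was left out, and it was 0.33 with slide as a fixed block. Keratin KRT8 had 5.69, 4.60 and 4.86 on day 18, against 5.49, 5.33 and 6.25 on day 13. Stromal DCN had 7.87, 7.52 and 7.86 on day 18, against 7.64, 7.59 and 7.53 on day 13, a difference of 0.16 (SE 0.30). Immediate early and heat shock genes, which can respond to handling of tissue, had a median difference of 0.11 in 12 tested, 3 above without overlap and 1 below. The endoplasmic reticulum chaperone HSP90B1 had 6.29, 6.53 and 5.89 on day 18, against 5.55, 5.68 and 5.84 on day 13, while the mitochondrial chaperonin HSPE1 had 5.26, 5.09 and 5.42 on day 18, against 6.07, 5.82 and 5.61 on day 13. Ribosomal protein genes had a median of -0.12 in 30 tested, with 24 negative, 0 above and 3 below without overlap. That median turned with the scaling, to 0.14 after normexp and 0.03 with scaling to the median.

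Secreted uterine proteins had a median difference of -0.07 in 34 tested genes, with 17 positive and 17 negative. Osteopontin (SPP1), an adhesion protein of the uterine epithelium that binds integrins at the attachment surface, had 3.47, 3.58 and 1.31 on day 18, against 0.53, 1.35 and -0.09 on day 13. Day 18 replicate 3 lay just below the highest day 13 array, and the difference was 2.19 (SE 0.72, adjusted p 0.789). The 3 other tested probes of SPP1 gave 2.25 to 2.49. On day 18 SPP1 stood higher at attachment sites, at 6.58, 5.78 and 5.32, where the day 13 arrays held 1.88, 1.25 and -0.61. The log2 fold change there was 5.05 (adjusted p 0.00974), and the day 24 inter-site arrays held 6.69, 5.69 and 5.25. The SPP1 changes at the 2 site types differed by -2.86 (SE 1.02), which did not pass the test (limma adjusted p 0.599). Nor did the higher day 18 level of SPP1 at attachment sites pass. The test between site types on that day called 0 of 30089 probes (lowest limma adjusted p 0.0697). The protease inhibitor SLPI had 7.22, 8.64 and 4.82 on day 18, against 8.56, 5.81 and 4.79 on day 13, so the days overlapped. Its difference of 0.50 (SE 0.94) turned to -0.83 with slide as a fixed block and was 1.59 without day 13 replicate 1.

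ACP5, the iron-carrying uteroferrin of the uterine glands, had 9.22, 9.36 and 8.88 on day 18, against 6.03, 9.31 and 9.17 on day 13. RBP4, the retinol carrier of histotroph, had 8.43, 8.33 and 8.08 on day 18, against 1.97, 8.66 and 8.24 on day 13. In both genes the day 13 mean was set by replicate 1, and the other 5 arrays were alike. The differences of 0.98 and 1.99 became -0.09 and -0.17 without that library.

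Other genes on which day 13 replicate 1 stood apart behaved alike. The sulfotransferase SULT2A1, which inactivates steroids, had 8.23, 8.25 and 4.72 on day 18, against -1.89, 6.80 and 5.62 on day 13. Its difference of 3.55 became 0.85 without day 13 replicate 1. For DKK1 the difference of 2.83 (SE 2.28) became 0.15, and for PTGS2, the inducible enzyme of prostaglandin synthesis, 1.79 became 0.60. Follistatin (FST), which binds activin, had 1.71, 1.07 and 1.83 on day 18, against -2.26, 2.24 and 2.21 on day 13. Without day 13 replicate 1 all day 18 values lay below the remaining day 13 values, and the difference of 0.81 turned to -0.69 (SE 0.84). KLF5, a transcription factor of epithelium, and PGR likewise turned, to -0.73 and 0.16 against 0.16 and -0.16 with all arrays. The other tested probe of KLF5 gave -0.26 with all arrays. The panels by gene show day 13 replicate 1 outside the range of the other 5 arrays for each of these genes.

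**Figure D3:**
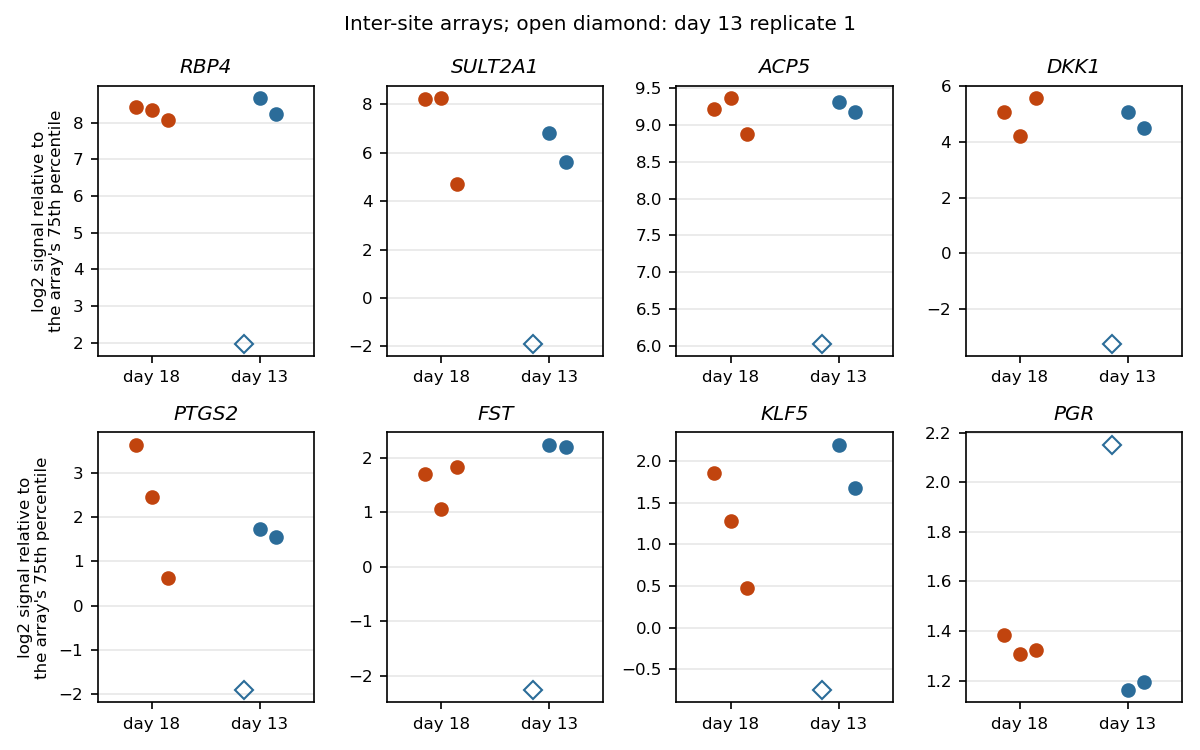
Levels of 8 genes on the 6 inter-site arrays, as log2 signal relative to the 75th percentile of the array, with day 18 left of day 13; each point is 1 array. The open diamond is day 13 replicate 1, at 1.97 for RBP4 and -3.24 for DKK1, apart from the other 5 arrays in every panel.

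Among ion and calcium genes, S100G, the calcium-binding protein calbindin D9k, had the lowest difference. It had -0.05, -1.60 and -2.63 on day 18, against 2.66, 1.42 and 2.19 on day 13. All day 18 values lay below all day 13 values, and the difference was -3.51 (SE 1.14, adjusted p 0.785), with -3.44 at its other probe and -3.23 without day 13 replicate 1. The chloride channel CFTR had -5.02, -4.41 and -5.54 on day 18, against -2.97, -4.28 and -3.32 on day 13, a difference of -1.47 (SE 0.57), while attachment sites differed by 1.39. For CFTR neither the inter-site difference, the attachment site difference nor the difference between them passed the test. Stanniocalcin STC1, a secreted regulator of calcium, had 0.34, -1.55 and -0.77 on day 18, against -4.59, 2.08 and -0.74 on day 13, a difference of 0.42 (SE 1.61) that turned to -1.34 without day 13 replicate 1. The list of 24 tested genes had a median of -0.28, with 1 above and 2 below without overlap.

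Of the genes without overlap and with the largest moderated t, 15 above and 14 below were named. Beyond the interferon and antigen presentation genes, the innate lectin FCN2 (ficolin), which activates complement, had 2.48, 1.73 and 1.97 on day 18, against -0.12, -0.34 and -0.30 on day 13, a difference of 2.32 (SE 0.53, adjusted p 0.513). Its other probe gave 2.28. Prothrombin (F2) had 1.09, 0.65 and -1.49 on day 18, against -1.96, -2.15 and -2.60 on day 13. The complement protease C1S had 3.59, 4.37 and 4.17 on day 18, against 3.04, 3.26 and 3.13 on day 13. These 2 were the members of the complement and coagulation list, 28 tested with a median of -0.02, whose day 18 values all lay above.

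The splicing factor SMNDC1 had 0.69, 0.24 and 0.77 on day 18, against -0.29, -0.29 and -0.32 on day 13, and a difference of 0.87 (SE 0.20, adjusted p 0.497). SMN1, which assembles the small nuclear particles of the spliceosome, had -1.98, -2.36 and -1.89 on day 18, against -2.70, -3.16 and -2.69 on day 13. Neither gene overlapped between days. RPN1, a subunit of the enzyme that glycosylates new secretory proteins, had 4.04, 3.97 and 3.76 on day 18, against 3.15, 3.08 and 3.32 on day 13, with the same sign at its 3 other tested probes.

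On the lower side, the vitamin C transporter SLC23A2 had -5.58, -5.64 and -6.30 on day 18, against -3.53, -4.94 and -4.59 on day 13, a difference of -1.49 (SE 0.38, adjusted p 0.671). It was well above background on 1 of 3 day 18 arrays. AHCYL1, a relative of the enzyme that splits S-adenosylhomocysteine and itself a regulator of calcium release, had -1.40, -1.27 and -1.47 on day 18, against -0.73, -0.65 and 0.66 on day 13. Its difference was -1.14 (SE 0.33), and at attachment sites it fell by 1.63 on the log2 scale (adjusted p 0.0287). Day 13 replicate 3 was its highest inter-site array.

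Integrin ITGB6, an epithelial subunit that binds matrix and latent growth factor, had -8.02, -7.57 and -6.47 on day 18, against -6.42, -4.64 and -4.76 on day 13. It was well above background on 0 of 3 day 18 arrays and 2 of 3 day 13 arrays, and the closest values of the 2 days differed by little. The ammonium transporter RHBG had -4.39, -4.18 and -4.14 on day 18, against -2.41, -0.95 and -3.45 on day 13, a difference of -1.97 (SE 0.62). GPNMB, a glycoprotein of macrophages and other cells, had -1.57, -0.70 and -1.29 on day 18, against 0.39, -0.65 and -0.37 on day 13, and its 3 other tested probes gave -2.47 to -2.04. The day 13 values of RHBG and GPNMB were the more scattered. The receptors BMPR1B and ACVR1B, for bone morphogenetic proteins and activins, differed by -0.86 (SE 0.30) and -0.99 (SE 0.37). The remaining lower genes of the group, KBTBD3, B3GNT5, AZIN1, XPNPEP2, FOXO3 and HSPBAP1, had differences between -1.08 and -0.49. KBTBD3 was well above background on 1 of 3 day 18 arrays and 3 of 3 day 13 arrays. It was tested because of the day 13 inter-site arrays alone, which favoured a lower day 18 value.

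**Figure D4:**
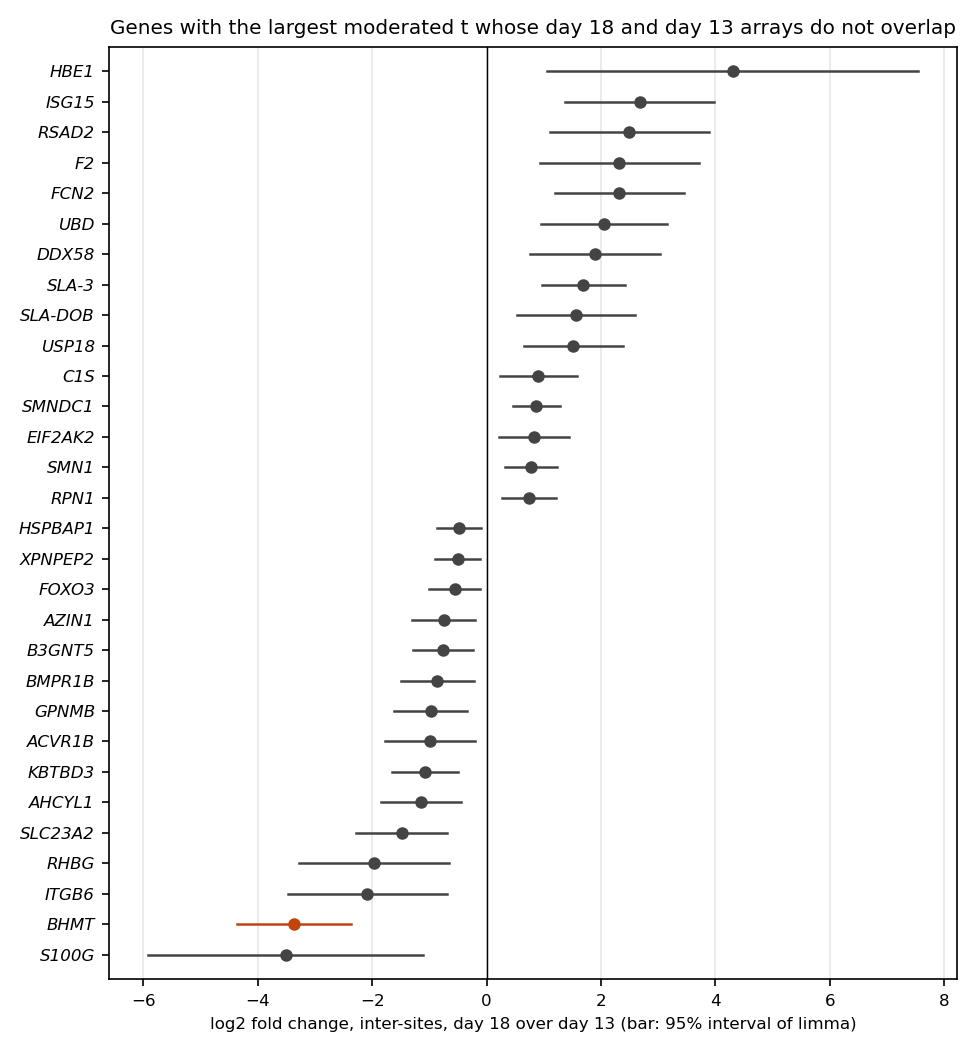
Log2 fold change of day 18 over day 13 inter-sites for BHMT and the 29 genes with the largest moderated t among those whose arrays do not overlap; points are estimates, bars are 95% intervals, and the coloured gene passed the test. The genes were selected for their separation, and the intervals take no account of that.

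Other lists held scattered members. AKR1CL1, an aldo-keto reductase, had 2.43, 3.22 and 3.89 on day 18, against 0.63, 1.09 and -6.25 on day 13, where replicate 3 was not well above background. Its difference of 4.69 (SE 2.40) became 2.32 without that array. The endothelin receptor EDNRA, which acts on vessel tone, had a difference of -0.72 (SE 0.32), without overlap. The cell cycle regulators CDC20 and CDC25C had differences of -2.03 (SE 1.005) and -1.06 (SE 0.41), and that of CDC20 became -1.22 without day 13 replicate 1. CDC20 was well above background on 1 of 3 day 18 arrays and 3 of 3 day 13 arrays. S100A8 and S100A12, antibacterial proteins of neutrophils and inflamed epithelium, had differences of -2.02 (SE 0.99) and -2.14 (SE 1.004). For S100A12 the day 13 arrays ranged between -2.63 and 2.50. Leaving out 1 library moved both: without day 13 replicate 1 S100A12 was -3.32, and without day 13 replicate 2 S100A8 and S100A12 were -0.82 and -0.75. Between the 2 arrays that share a slide S100A12 was 1.25, with the sign turned.

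The remaining named genes are given by their differences. The interleukin genes IL1A and IL6 had 1.197 (SE 0.59) and -0.42 (SE 0.62), and the acute phase protein SAA3 had -0.58 (SE 0.94). Without day 13 replicate 1 they were 0.47, -0.07 and -1.64. SAA3 turned to 0.26 without day 18 replicate 1 and to 0.11 without day 13 replicate 3. LPAR3, the receptor for lysophosphatidic acid that the uterus expresses around implantation, had -4.58, -5.54 and -6.60 on day 18, against -4.85, -3.35 and -5.07 on day 13, a difference of -1.15 (SE 0.83) with overlap. LPAR3 was well above background on 1 of 3 day 18 arrays and 3 of 3 day 13 arrays. The mucin MUC20 had -1.19, -0.83 and -1.50 on day 18, against 1.23, -1.57 and -0.97 on day 13. Its day 13 replicate 1 was the highest of the 6 arrays, and the difference of -0.74 became 0.10 without it. CLDN4, the leukocyte integrin ITGAL (0.67), the growth factor IGF2 (0.74), the fatty acid carrier FABP5 (1.11) and the endothelial cadherin CDH5 (0.33) all overlapped. Catalase (CAT, 0.69) and the protease inhibitor ITIH4 (0.68) had all day 18 arrays above. RPS26 (-0.48), RPS28 (-0.28), the uncoupling protein UCP3 (-0.96) and heparanase (HPSE, -1.196) had all day 18 arrays below, with HPSE well above background on 0 of 3 day 18 arrays and 1 of 3 day 13 arrays. TNXB (-0.78, and -0.45 without day 13 replicate 1), THY1 (-1.04) and CLDN5 (-0.33) overlapped.

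Over the lists, the medians of the cytokine and chemokine genes (0.30 in 48), vasoactive signals (0.22 in 26), nutrient transporters (0.11 in 28), adhesion molecules and mucins (0.09 in 30), steroid genes (0.09 in 29), endothelial markers (0.18 in 3) and lipid and fuel genes (0.04 in 61) were on the positive side. Those of growth factors and homeobox factors (0.02 in 39), innate receptors (-0.02 in 31), extracellular matrix (-0.11 in 28), the cell cycle (-0.15 in 20), prostaglandin synthesis (-0.17 in 17), stromal fibroblasts (-0.44 in 2) and amino acid enzymes (-0.29 in 17, with BHMT) lay near or below 0. The median of 19 of the 26 lists took the other sign under at least 1 alternative, and those of 7 kept it under every one: the interferon response, antigen presentation, T and NK lymphocytes, smooth muscle, adhesion molecules and mucins, prostaglandin synthesis and stromal fibroblasts. Some of these 7 came close to 0. Smooth muscle was 0.03 with slide as a fixed block, and T and NK lymphocytes 0.03 after normexp. Prostaglandin synthesis was -0.02 with scaling to the median, and adhesion molecules and mucins 0.04 without day 13 replicate 1. The 2 tested stromal genes had opposite signs. None of the 26 lists with a tested member held a call other than BHMT. The B and plasma cell, blood and ciliated epithelium lists had 0 tested members.

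**Figure D5:**
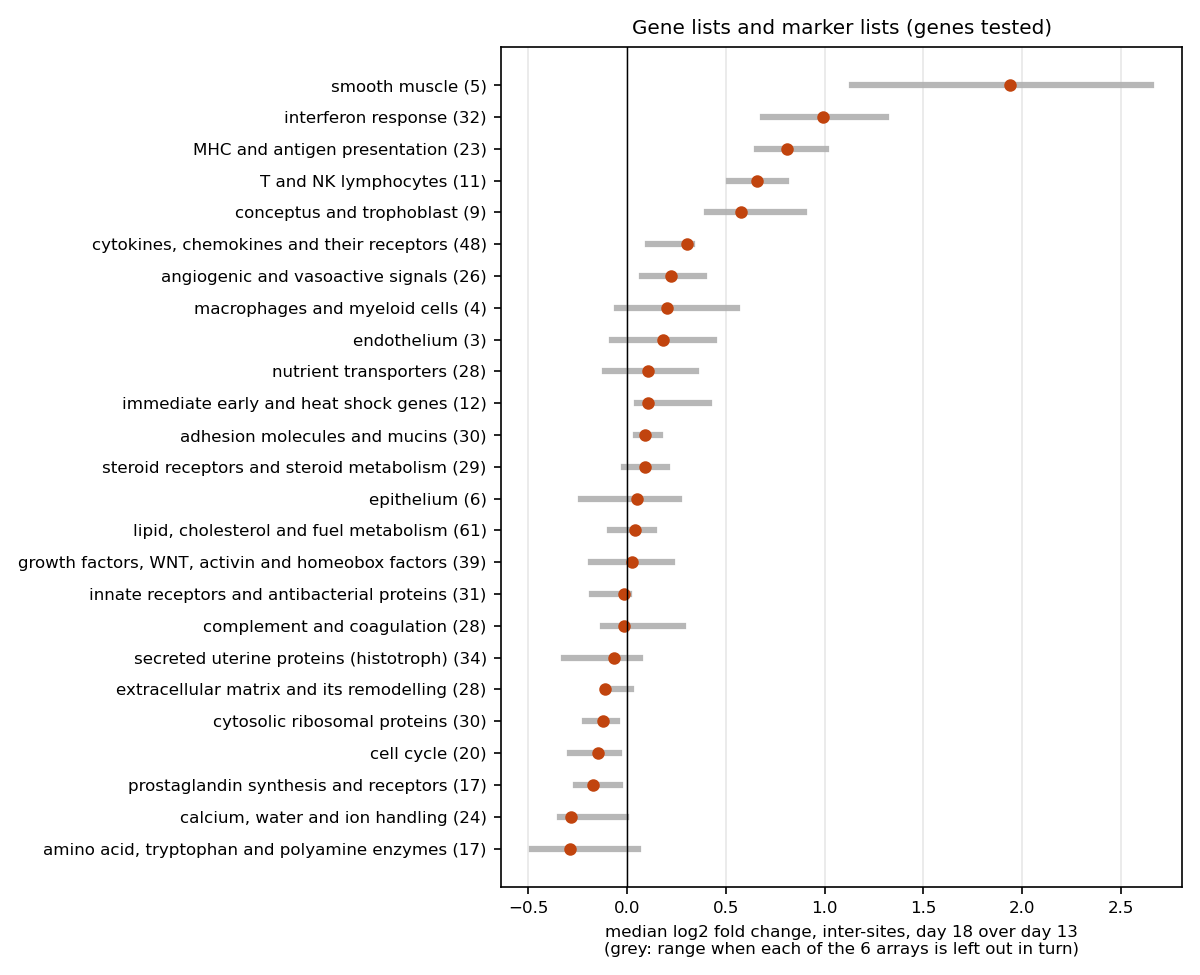
Median log2 fold change of day 18 over day 13 inter-sites over the tested genes of each list with at least 3 (number in brackets); the grey bar is the range when each of the 6 arrays is left out in turn, and the vertical line is the median of all named genes. The smooth muscle, interferon response and antigen presentation medians are 1.94, 0.99 and 0.81.

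The attachment sites of the same days are set beside these differences. There 540 of 30089 probes were called (1.79%), against the 2 at inter-sites, and 6416 (21.3%) had an unadjusted p under 0.05. Counts of calls do not test whether the site types differ. The test of the difference between their changes called 0 of 30089 probes, with 2386 (7.93%) at an unadjusted p under 0.05 and a lowest adjusted p of 0.599. The 298 probes called higher at attachment sites had a median of 0.63 at inter-sites and 2.15 at attachment sites, and 87 of them (29.2%) had an unadjusted p under 0.05 at inter-sites. The 242 called lower had medians of -0.52 and -1.52, with 84 (34.7%). Both sets were chosen by the attachment site test, which favours large attachment site values. Their medians at the 2 site types therefore do not compare the size of the changes. The shares of 29.2% and 34.7% stand beside 5.5% of all tested probes. Both site types used one estimate of each probe's spread and share sows. These shares are therefore not independent evidence of changes at inter-sites. The interferon response list had medians of 0.99 at inter-sites and 1.43 at attachment sites, and antigen presentation had 0.81 and 1.88. At attachment sites 9 of 32 and 12 of 23 of these genes were called higher at an adjusted p under 0.05. Of all 2017 named genes, 51 were called higher there. At inter-sites 0 genes of either list were called. CXCL9 had a difference of 0.52 at inter-sites and 4.83 at attachment sites (adjusted p 0.0475 there), and SLPI had 0.50 and 4.10 (adjusted p 0.0397 there). Since the site types share sows, these values stand side by side as descriptions.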

How the data were processed

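Spot intensity was deposited as scanner output of Agilent Feature Extraction 10.7.3.1, per the file headers, where the processed signal is background-subtracted and detrended within the array. The 0 or 1 flags of that software and, for an alternative, its median signals of spot and surround were also taken as deposited. The authors' own table of log2 values was a further alternative, made with software not named in these sources.

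Control spots and outlier-flagged spots were left out, spots of a probe were averaged, and each array's 75th percentile was subtracted on the log2 scale. Probes that reached well above background on every array of some group were tested, and 13514 were not. Means of the 7 groups were fitted to the 21 arrays by limma 3.58.1 (R 4.3.3; 14 residual and 2.71 prior degrees of freedom), with Benjamini-Hochberg adjustment over all tested probes and a threshold of 0.05. Of 5779 probes with a RefSeq accession, 5461 matched 1 symbol (2389 genes, named with the table of the Sscrofa11.1 assembly); 38142 probes stayed unnamed. The probe with the highest mean over 21 arrays stood for a gene.

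Named were called genes, then genes without overlap by moderated t up to 15 a direction, the 2 list members with the largest t where none was called, and 19 uterine genes; a few of them are not reported here. Members and lists were chosen with earlier results of these data known. The number of arrays limits the precision. The alternatives were other background correction, scaling, filters, array sets, blocks, weights and single libraries left out.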

Additional observations from a re-analysis of the deposited data

How the results depend on the processing

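The 2 called probes became 0 with normexp, with only the 6 arrays, with slide as a fixed block, with the eBayes trend, and without the day 13 replicate 1 and day 24 replicate 3 inter-site libraries together. They became 5 (2 higher, 3 lower) with scaling to the median, 10 (3 higher, 7 lower) with array weights, 1 (lower) with only the 9 inter-site arrays, and 1 higher with 1 lower after quantile normalization and in the authors' table. With probes well above background on all 6 arrays 0 were called, and both called probes were left out before that test, being within background on day 18. Leaving out 1 inter-site library gave 0 to 6 calls, 0 to 3 higher and 0 to 3 lower. Normexp used the median spot signal. Replicate numbers did not pair the day 18 and day 13 inter-site libraries (same-number correlations of -0.06, 0.02 and 0.15), and the replicate block called 0 probes, with 1852 at an unadjusted p under 0.05 and a lowest adjusted p of 0.109. No call on the difference between site types appeared under any alternative fitted to both site types.

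Signs of single genes turned in these fits, none of them a called value, and the cause was not tested except where 1 library was left out. Normexp gave -0.17 for ITGAL, 0.028 for PGR, -0.52 for SLA-DOB and -0.66 for STC1. Slide as a fixed block gave 0.029 for KRT8, 0.48 for SAA3 and -0.83 for SLPI. Array weights gave -0.54 for CXCL9, -0.14 for IRF1, 0.0026 for PGR and -0.18 for STC1. Without the day 13 replicate 1 and day 24 replicate 3 libraries, ACP5 was -0.088, CLDN4 -0.13, FST -0.69, KLF5 -0.73, MUC20 0.10, PGR 0.16, RBP4 -0.17 and STC1 -1.34. Leave-one-library ranges were -0.088 to 1.56 for ACP5, -0.13 to 1.05 for CLDN4, -0.42 to 1.36 for CXCL9, -0.69 to 1.56 for FST, -0.73 to 0.74 for KLF5, -1.30 to 0.10 for MUC20, -0.34 to 0.16 for PGR, -0.17 to 3.17 for RBP4, -1.64 to 0.26 for SAA3, -0.37 to 1.59 for SLPI and -1.34 to 2.003 for STC1. Between the 2 arrays on slide 6, CD180 was -0.09, CLDN5 0.35, CXCL9 -1.28, IRF1 -0.05, ITGAL -0.52, KRT8 0.20, LPAR3 0.27, S100A12 1.25 and SLPI -1.35. Medians of 19 of 26 lists also turned under at least 1 alternative, among them amino acid enzymes, at 0.06 without day 18 replicate 2.

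Of the other values, 1750 for single genes kept their sign and side of the threshold or, on slide 6, moved by less than the spread between arrays, and 495 for list medians moved by less than the spread between arrays; 42 single-gene values on slide 6 alone and 77 list medians moved by more, and BHMT lost its call under 11 alternatives. Much of this agreement was fixed in advance. The eBayes trend, the test of all probes, the fits to fewer groups and the replicate block repeated the main list medians. Leaving out day 24 replicate 3 besides day 13 replicate 1 added no new median either. Genes other than BHMT lay far from the threshold in the main fit (lowest limma adjusted p 0.388). The counts therefore do not measure how stable the values were. For probes within background, such as that of CYP19A3, only bounds were measured.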
